A study of Mus musculus with 3 samples.

Results

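Early Mgarp-expressing horizontal cells were the retinal horizontal cells of postnatal day 6 (P6) that held the most RNA of Mgarp, a gene with a count in nearly every horizontal cell of the older libraries. These interneurons lie in the outer retina, contact rod and cone terminals and feed inhibition back to them. The mice carried Cx57icre, in which the connexin 57 locus drives Cre, and the reporter Ai14, which turns red once Cre has acted. A library of sorted red cells was made at each of the ages P6, P8 and P11, and all groups described here share both alleles and had no treatment. How many animals entered a library is not given in the sources used here, and Ai14 marks any cell in which the driver was ever active. Each captured transcript carried a unique molecular identifier (UMI), so counts are molecules and not PCR copies.

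In the P6 library, 6214 of 9896 barcodes met the definition of a horizontal cell, which was at least 1000 detected genes, at most 10% mitochondrial UMIs, at least 5000 UMIs, and a UMI of at least 2 of the factors Lhx1, Onecut1 and Onecut2. Mgarp UMIs per 1000000 UMIs then ranked these cells. The top 25% held 1554 cells, from 226.415 per 1000000 upward, and the last cell below it stood at 226.388. Another 2386 cells (38.4%) had 0 Mgarp UMIs, and 2274 lay between. The whole series held 13805 such horizontal cells among 20048 barcodes. The label of horizontal cell was checked on 7 markers other than Mgarp, of which Lhx1, Onecut1 and Onecut2 are the factors that the definition required. The 4 that it did not use were detected in both Mgarp groups. In depth-matched cells with 0 Mgarp and in the top 25%, Tfap2b stood at 1644 and 1743 counts per 1000000 UMIs (CPM), Prox1 at 922 and 948, Calb1 at 585 and 917, and Slc4a3 at 480 and 544.

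Mgarp encodes a mitochondrial membrane protein, also known as HUMMR, that has been linked to the movement of mitochondria along neurites and to the transcriptional response to low oxygen. Between birth and eye opening horizontal cells withdraw early radial processes, space themselves into a mosaic, extend a lateral arbour and enter photoreceptor terminals. Growth-associated and cytoskeletal genes are typical of a growing neurite, while calbindin and vimentin are long-used markers of the differentiated horizontal cell. The comparison asked how the rest of the RNA differed between cells that already held Mgarp RNA and cells in which none was counted, inside 1 library of 1 age.

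Promoters of 3 genes are shown because low-oxygen response factors of the HIF family are known to act at the core ACGTG or its variant GCGTG. They were chosen because Mgarp ranked the cells while Ldha and Aldoc were the 2 glycolysis genes past 1.5-fold. Each covers 250 bases before and 50 after a gene start in the RefSeq table of build GRCm38.p6, 5′ to 3′ on the strand of the gene, with ACGTG and GCGTG in capitals on either strand, so that reverse matches read CACGT and CACGC. Where CACGTG occurs, ACGTG and CACGT overlap in it. The windows are chr3:51396498-51396797 (minus strand) for Mgarp, chr7:46845554-46845853 (plus strand) for Ldha and chr11:78322823-78323122 (plus strand) for Aldoc.
Mgarp: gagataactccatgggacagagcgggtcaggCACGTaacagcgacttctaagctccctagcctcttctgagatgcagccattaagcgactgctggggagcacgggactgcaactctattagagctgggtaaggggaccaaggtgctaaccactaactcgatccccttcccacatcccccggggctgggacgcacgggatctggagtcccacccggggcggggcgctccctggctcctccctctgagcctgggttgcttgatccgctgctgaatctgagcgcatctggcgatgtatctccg
Ldha: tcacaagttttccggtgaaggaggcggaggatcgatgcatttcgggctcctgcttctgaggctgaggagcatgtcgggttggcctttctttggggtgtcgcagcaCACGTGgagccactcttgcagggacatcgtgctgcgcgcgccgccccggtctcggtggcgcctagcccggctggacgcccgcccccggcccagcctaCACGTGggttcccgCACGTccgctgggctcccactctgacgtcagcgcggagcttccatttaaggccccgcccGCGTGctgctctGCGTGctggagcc
Aldoc: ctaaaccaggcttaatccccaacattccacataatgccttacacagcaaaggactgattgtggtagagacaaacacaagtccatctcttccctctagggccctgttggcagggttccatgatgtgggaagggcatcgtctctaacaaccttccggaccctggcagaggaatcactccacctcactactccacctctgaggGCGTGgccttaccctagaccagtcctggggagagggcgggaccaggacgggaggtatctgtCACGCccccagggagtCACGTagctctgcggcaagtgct
The Mgarp window held 1 match, the Ldha window 7 and the Aldoc window 3, counting each strand. ACGTG or CACGT was present in 15 of the 31 promoters (48.4%) of the 20 glycolysis genes in the table, and in 5 of 16 promoters (31.3%) of the 12 genes with a promoter among those higher in the top 25%. The share was 26.6% of 7294 promoters of the genes tested at P6 and 19.6% of all 32851 promoters. The shares for GCGTG or CACGC were 54.8%, 62.5%, 53.5% and 32.4% in the same order. These matches describe letters and are not binding sites.

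Mgarp itself lies at chr3:51388412-51396738 on the minus strand of mm10. Its level was 0 in the first group by construction, 116 CPM in the middle cells, 459 CPM in the top 25% and 694 CPM in the top 10% (622 cells). All P6 horizontal cells together stood at 161 CPM, against 2647 CPM at P8 and 5445 CPM at P11. Even the summed level of the top 10% at P6 lay below that of the lowest 25% of P8 cells (951 CPM). Single cells overlapped, at 443 to 2170 per 1000000 in the former group and 0 to 1624 in the latter. At P8 only 7 of 3004 horizontal cells had 0 Mgarp UMIs, and at P11 none of 4587. A single cell with 0 UMIs is weak evidence: 3 counts in a zero cell of median depth (11946.5 UMIs) would equal 251 per 1000000, which is above the threshold of the top 25%. The groups are therefore read as sums over cells. Median depth was 12761 UMIs in the top 25% and 13911 in the middle cells.

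**Figure D1:**
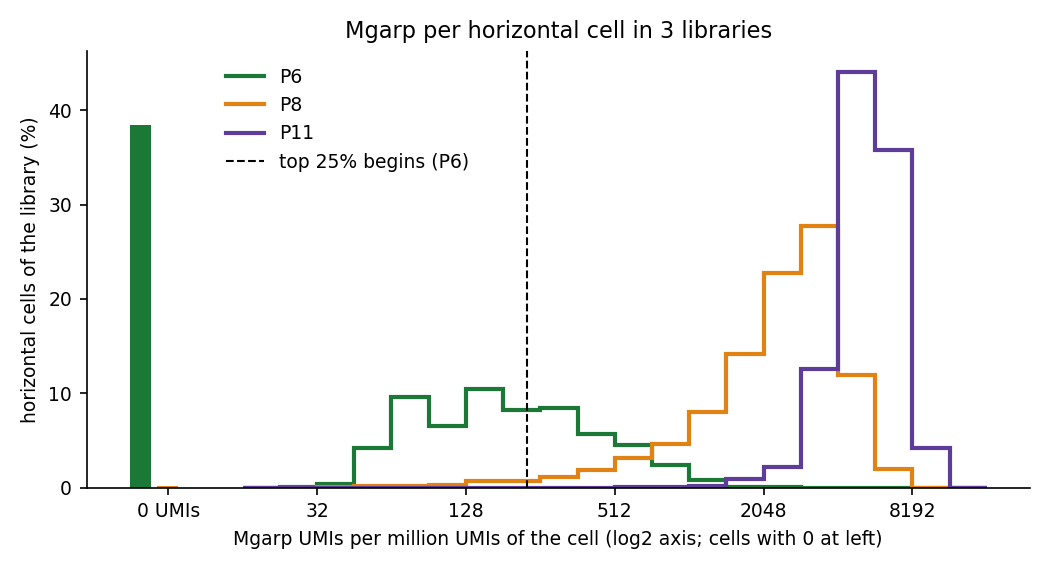
Share of the horizontal cells of each library (vertical axis, %) by Mgarp UMIs per 1000000 UMIs of the cell (horizontal axis, log2 scale, cells with 0 UMIs as bars at the left), for P6, P8 and P11. At P6 38.4% of cells sit at 0 and the dashed line marks the start of the top 25%, while nearly all P8 and P11 cells lie to its right.

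After every cell was thinned to 1500 UMIs, a Mgarp UMI remained in 18.6% of P6 horizontal cells (exact binomial 95% interval 17.7 to 19.6%, unthinned 61.6%, median depth 12948 UMIs). Among 190 P6 barcodes deep enough to be thinned and with no UMI of the 3 factors, the share was 26.8% (20.7 to 33.7%; unthinned 41.1% of 197 barcodes at a median depth of 2314 UMIs). At P6 the share over all horizontal cells was thus not above that in the other barcodes, and it is not read as detection above background. In the top 25% 50.5% of cells kept a UMI, which the ranking fixes. Thinned shares were 91.4% in horizontal cells and 66.1% in such barcodes at P8, and 99.7% and 79.1% at P11. All intervals given here cover counting error only.

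To remove depth from the comparison, equal numbers of cells were drawn from both groups within bins of 0.25 log2 units of total UMIs. This left 1539 cells a group, with 19125315 UMIs in the Mgarp-rich cells and 19095441 in the Mgarp-zero cells. Their median mitochondrial shares were 3.19% and 3.15%. Cells with a Xist UMI and no Y-linked UMI made up 56.1% of the rich and 67.1% of the zero cells, and cells of the opposite kind 34.6% and 26.3%, so the P6 library held cells of both sexes. At P8 the first kind made up 0% and the second 96.2% of horizontal cells. Within the first kind the log2 ratio of rich over zero cells was 1.21 for Cplx3, 0.68 for Calb1, -0.90 for Kcnq3 and -0.68 for Gap43, and within the second kind 1.20, 0.54, -1.06 and -0.74. With 1 library an age there is no test within P6: ratios carry exact conditional binomial intervals, and a gene is counted when it was at least 1.5-fold apart with at least 20 CPM in its higher group.

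Mgarp-rich cells at P6 held more RNA of Cplx3, Tecrl, Aldoc, Dbp, Ldha and Calb1, and less of Kcnq3, Rbfox1, Pyy and Gap43. Of 6988 genes, 19 (0.272%) passed 1.5-fold upward and 24 (0.343%) downward in the rich cells. These counts depend on how the groups are set: groups set on cells thinned to 5000 UMIs gave 4 and 1, of which 4 and 0 were among the 19 and the 24, and every Mgarp-positive cell against 0 gave 5 and 3. The higher genes were Cplx3, Tecrl, Lgsn, Erich5, Aldoc, Dbp, 1700128E19Rik, Arhgef26, Ppp1r1b, Ldha, Lynx1, Rgs8, Olfml3, Wfdc10, Calb1, B530045E10Rik, Pcsk2, Igfbp7 and Hist1h2bc. The lower genes were Kcnq3, Ntm, Fmnl2, Efna5, Tmem132d, Cacna1c, Rbfox1, Dpp10, Pyy, F730043M19Rik, Grin2b, Mir670hg, Pcdh15, Gap43, Pitpnc1, St8sia3os, Lrrc7, Kalrn, Gria1, Anxa2, Tafa5, Cacna1e, Plppr3 and Adgrv1.

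The highest ratio belonged to Cplx3, which encodes a complexin of ribbon synapses. Its level was 12.5 CPM in all cells with 0 Mgarp, 16.8 in the middle cells, 28.3 in the top 25% and 33.7 in the top 10%. The depth-matched ratio was 2.25-fold (1.93 to 2.63). After thinning to 5000 UMIs, 11.5% of top 25% cells and 5.62% of zero cells had a Cplx3 UMI (unthinned 24.0% and 11.9%). Of the 197 P6 barcodes with no UMI of the 3 factors, 29.9% had a Cplx3 UMI unthinned (23.6 to 36.9%). Their median depth was 2314 UMIs, against 12761 in the top 25%. The part of RNA from outside horizontal cells in the Cplx3 ratio was not tested.

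Tecrl, an enoyl reductase-like enzyme of the endoplasmic reticulum, followed the same order at 62.7, 84.4, 137 and 170 CPM, a matched ratio of 2.12-fold (1.98 to 2.27). Calb1, the calcium buffer calbindin, rose through the groups from 576 to 699, 911 and 1053 CPM, a ratio of 1.57-fold (1.53 to 1.61). Vim, the intermediate filament vimentin, stood at 669, 792, 955 and 1038 CPM, a ratio of 1.41-fold (1.38 to 1.45). Of the 19 higher genes, 18 had a middle group between the other groups and 17 were higher still in the top 10%. The exception in the middle was Wfdc10, at 30.6, 30.1 and 47.2 CPM. These genes were chosen by their ratio of rich over zero cells in the same library, so this order is in part set by the choice. The top 10% is also a part of the rich cells and not a separate group.

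Dbp, a transcription factor of the circadian output, stood at 125, 152, 203 and 232 CPM over the same groups, a matched ratio of 1.64-fold (1.55 to 1.72). Ppp1r1b, the dopamine-regulated phosphatase inhibitor DARPP-32, was counted at 17.7 CPM in matched zero cells and 28.5 in rich cells. Lynx1, a membrane-bound modulator of nicotinic receptors, stood at 21.2 and 33.9 CPM. Other higher genes encode secreted proteins (Olfml3, 54.6 and 86.7 CPM, and Igfbp7, 37.9 and 57.0 CPM), and just under the limit lay Faim2, an inhibitor of Fas-driven cell death, at 147 and 219 CPM.

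On the lower side Kcnq3, a subunit of the M-type potassium channel, fell stepwise from 186 CPM in zero cells to 152, 95.3 and 76.5 CPM in the middle, top 25% and top 10%. The matched level in zero cells was 1.97-fold that in rich cells (1.86 to 2.09). Rbfox1, a neuronal splicing regulator, stood at 468, 389, 279 and 232 CPM (1.70-fold higher in zero cells, 1.64 to 1.76). Pyy, the neuropeptide peptide YY, stood at 271, 213, 157 and 124 CPM (1.69-fold, 1.61 to 1.76). All 24 lower genes had their middle group between the other groups, and 23 were lower still in the top 10%, an order again in part set by the choice.

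Gap43, the growth cone protein GAP-43, stood at 306, 256, 189 and 167 CPM, and was 1.63-fold higher in zero cells (1.56 to 1.70). Efna5, an ephrin ligand of axon guidance, stood at 47.2, 39.9, 27.6 and 24.0 CPM, and Fmnl2, an actin-nucleating formin, at 55.5, 43.0, 29.8 and 27.7 CPM. Grin2b and Gria1, subunits of NMDA and AMPA receptors, were counted at 21.9 and 69.9 CPM in matched zero cells and at 13.1 and 45.0 CPM in rich cells. Lrrc7, a postsynaptic scaffold, stood at 98.3 and 62.1 CPM, and Kalrn, a GTPase exchange factor of spines and growth cones, at 197 and 126 CPM. The long noncoding host transcript Mir670hg stood at 115 and 68.9 CPM.

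The factors that define the cell type differed little. Lhx1 was at 705 CPM in matched zero cells and 710 in rich cells, Onecut1 at 778 and 737, Onecut2 at 1084 and 975, Prox1 at 922 and 948, and Tfap2b at 1644 and 1743. None of these 5 passed the edgeR test over 3 libraries described next, with adjusted p from 0.18 for Onecut2 to 0.98 for Prox1 (quasi-likelihood test, Benjamini-Hochberg). The rule required UMIs of the first 3, so their similar levels are in part set by it. Of 15 fate factors tested, none was called higher and 2 lower (P6 median log2 ratio -0.08), against 7.51% and 7.26% of all genes. Esrrb, an orphan nuclear receptor, was among the lower at 105 and 85.2 CPM. Without the P8 library 1 was called, and Esrrb was at an adjusted p of 0.065 with edgeR. Slc4a3 is an anion exchanger of horizontal cells. Rskr, a kinase gene, had 18 UMIs in zero and 18 in rich cells, and with a 95% interval of the ratio from 0.49 to 2.03 a difference was not detectable at this depth. At P8 Rskr stood at 2.27 CPM in the bottom and 9.50 CPM in the top 25% (4.19-fold). Its adjusted p with edgeR was 0.041 over 3 libraries and 0.22 without P8.

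**Figure D2:**
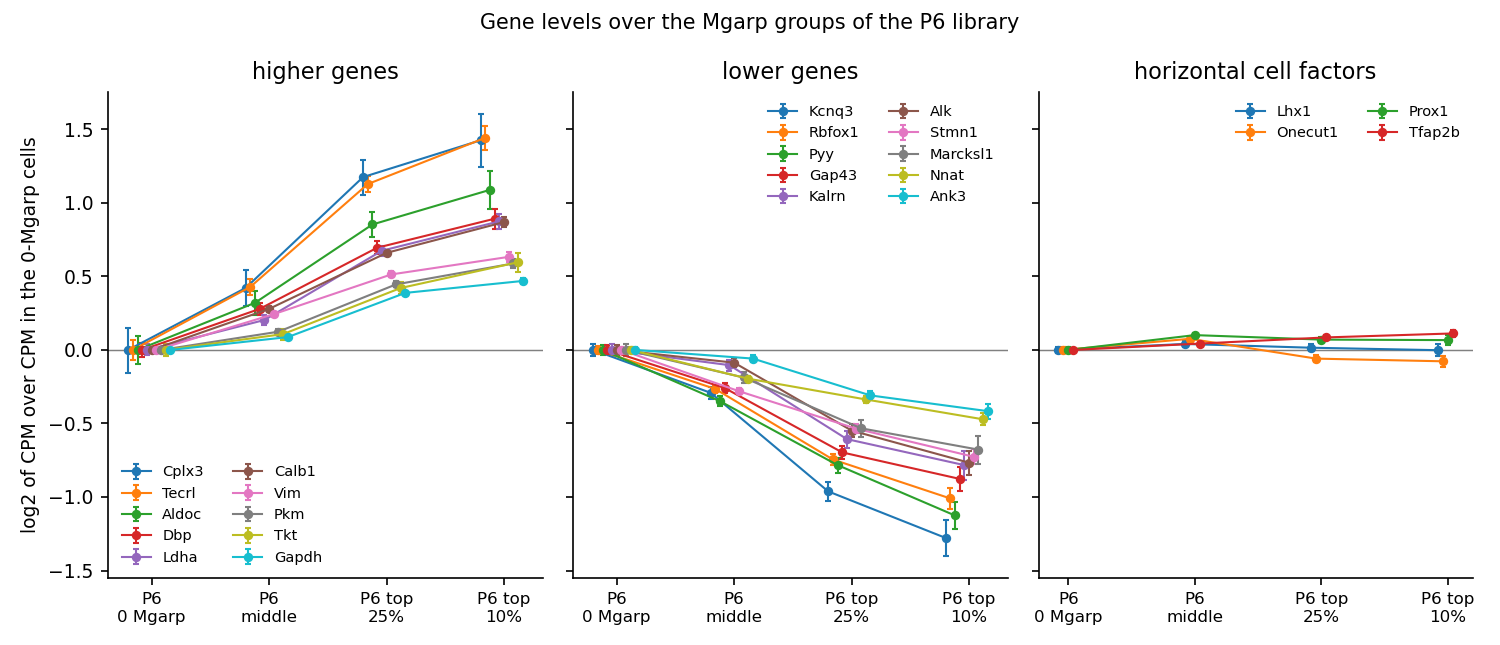
Level of 24 genes over the Mgarp groups of the P6 library (horizontal axis), as log2 of CPM over CPM in the cells with 0 Mgarp UMIs (vertical axis), with exact Poisson 95% intervals that cover counting error only. The 10 higher genes climb step by step (Cplx3 from 12.5 to 33.7 CPM), the 10 lower genes descend (Kcnq3 from 186 to 76.5 CPM), and Lhx1, Onecut1, Prox1 and Tfap2b stay near 0. Part of the higher and lower genes were chosen by their P6 ratio, which favours such steps.

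Whether the same genes went with Mgarp in libraries that did not enter the P6 ranking was asked at P8 and at P11, where the top 25% of cells by Mgarp was set against the bottom 25% (658 and 710 depth-matched cells a group). An edgeR quasi-likelihood fit over P8 and P11 alone, with library as a block, called 1247 of 12909 genes higher (9.66%) and 1355 lower (10.5%) at an adjusted p under 0.05. Of the 19 genes higher at P6, 17 were called higher and none lower, and all 24 lower genes were called lower. The exceptions among the higher genes were B530045E10Rik (adjusted p = 0.58 in this edgeR fit) and Pcsk2, a prohormone convertase (adjusted p = 0.32 in this edgeR fit). These p-values rest on 2 sums in each of 2 libraries, which leave little to measure a spread for each gene. They lean on a spread estimated over many genes at once. Groups in every library were made by ranking on the same gene.

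By size, 13 of the 18 higher genes with enough counts were at least 1.5-fold higher at P8 (54 of 6415 genes, 0.842%, were) and 4 of 18 at P11 (34 of 6823 genes, 0.498%). Of the 24 lower genes, only 10 had enough counts at P8 and 4 at P11, through the bottom 25% where they are high. All 10 and all 4 were at least 1.5-fold lower (background 2.43% and 4.78%), which this filter favours. Lower genes left out lay on both sides of 1.5-fold, such as Kcnq3 (log2 ratio -1.58) and Plppr3 (-0.45) at P11. Cplx3 went from 13.1 to 34.8 CPM between bottom and top 25% at P8 and from 11.4 to 22.9 CPM at P11. Tecrl went from 35.7 to 109 CPM and from 123 to 152 CPM. Kcnq3 went from 31.4 to 9.20 CPM and from 10.9 to 3.63 CPM. Gap43 went from 252 to 88.2 CPM and from 72.6 to 31.5 CPM. Each of these genes had its higher group on the same side in all 3 libraries.

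**Figure D3:**
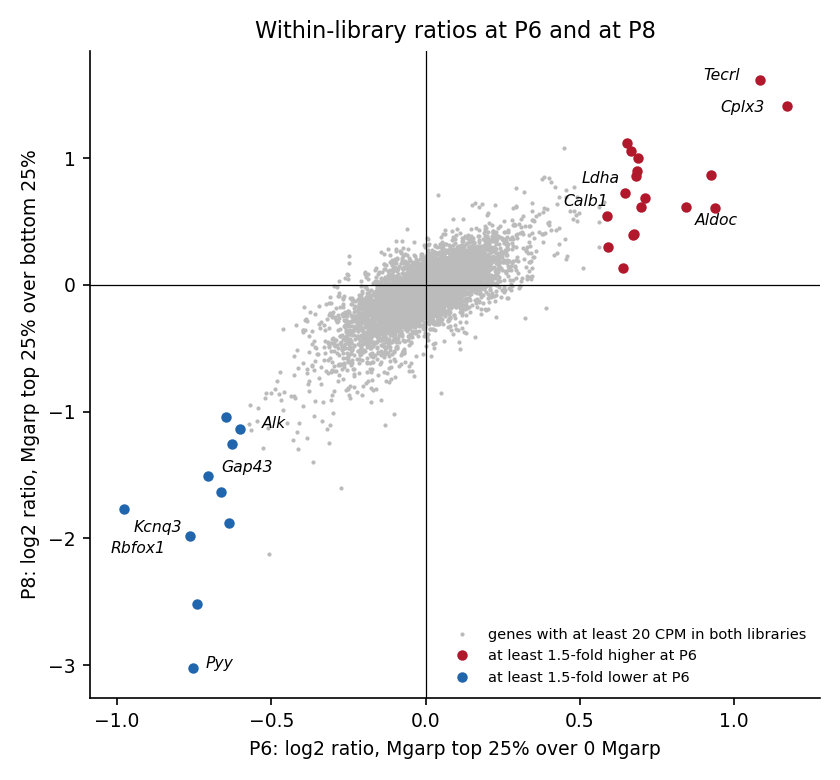
Log2 ratio of Mgarp-high over Mgarp-low cells for each gene at P6 (horizontal axis, top 25% over 0 Mgarp) and at P8 (vertical axis, top over bottom 25%). Grey points are genes with at least 20 CPM in both libraries, red points genes past 1.5-fold upward and blue points genes past it downward at P6. The red points lie above 0 at P8 and the blue points below 0.

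Across genes, the P6 ratio and the P8 ratio had a Spearman rank correlation of 0.73 over 6218 genes, and the P6 and P11 ratios a rank correlation of 0.68 over 6495 genes. Genes are not independent replicates, so these are descriptions. The same P6 ratio had a rank correlation of -0.18 with the ratio of all P11 to all P8 horizontal cells (6473 genes), which shares no cell with P6. With genes sorted by genomic span into 5 equal groups, that correlation was 0.28 in the group of shortest span and 0.01 in that of longest span. The median log2 ratio of P11 over P8 rose with span, from -0.27 in the shortest group to 0.42 in the longest. That of the P6 contrast fell from 0.08 to -0.12. The part of gene span in these correlations was not tested. Over all genes the Mgarp contrast inside P6 did not follow the P8 to P11 change in order.

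Single genes did so in part. Of the 18 higher genes tested between P8 and P11, 9 passed 1.5-fold upward at P11 (background 10.6%) and 1, Ldha, downward (background 4.57%). Of 5 lower genes tested, 3 were lower at P11 and none higher. Calb1 stood at 585 and 917 CPM in matched zero and rich P6 cells, at 1259 and 2078 CPM in the bottom and top 25% at P8, and at 2601 and 3264 CPM at P11. Marcksl1, a regulator of membrane-bound actin, ran the other way at 185 and 131 CPM, then 47.2 and 10.8, then 3.32 and 1.12. Ldha was higher in the Mgarp-high cells of every library (207 and 333, 304 and 550, 180 and 229 CPM), while its level was lower at P11 than at P8.

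The fit over all 3 libraries tested 1 average difference with Mgarp, so a call does not show a difference at every age. Vax2, for example, was called (edgeR adjusted p = 0.021) with log2 ratios of 0.04 at P6 and 0.71 at P8. The fit called 1028 of 13692 genes higher (7.51%) and 994 lower (7.26%), among them 18 of the 19 higher and all 24 lower P6 genes. The P8 library carried much of that count: without it the fit called 199 of 13733 genes higher and 366 lower, with 16 of the 19 and all 24 of the 24 P6 genes still called. Both fits contain the P6 contrast by which these genes were chosen, so their counts are in part fixed by the choice. For the list counts given below, the shares over all genes in each fit are the background. In that reduced fit Calb1 (log2 change 0.63 ± 0.10 SE, adjusted p = 0.0010 with edgeR over 3 libraries) was at an adjusted p of 0.057, and Lynx1 at 0.056. Vim passed over 3 libraries (edgeR adjusted p = 0.0021) and was at 0.098 without P8.

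Most of the glycolysis genes tested rose with Mgarp. Of 20, 12 were higher and none lower in the edgeR fit over 3 libraries, and the median log2 ratio at P6 was 0.38 over the 15 with at least 20 CPM, against -0.01 over all genes. Aldoc, the brain-type aldolase, stood at 32.1, 40.0, 57.9 and 68.2 CPM from zero cells to the top 10% (matched ratio 1.80-fold, 1.63 to 1.99). Ldha, the lactate dehydrogenase subunit that favours lactate formation, stood at 211, 243, 337 and 387 CPM (1.60-fold, 1.54 to 1.67). Pkm, pyruvate kinase, stood at 709 CPM in matched zero cells and 973 in rich cells, and the phosphofructokinase gene Pfkl at 104 and 140 CPM.

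Among the other enzymes of the pathway, Pgk1 was at 388 and 522 CPM, Gpi1 at 437 and 580, Pgam1 at 659 and 867, Tpi1 at 455 and 583, and Gapdh at 1621 and 2115. The platelet-type phosphofructokinase Pfkp was not among the genes that passed, at 63.9 and 59.9 CPM (adjusted p = 0.35 in the edgeR fit). Without the P8 library 6 of the 20 glycolysis genes were called. Gapdh was then at an adjusted p of 0.070, Pgk1 at 0.068, Pgam1 at 0.091 and Tpi1 at 0.078 with edgeR. Tkt, whose transketolase serves the pentose phosphate shunt, stood at 167 and 227 CPM (edgeR adjusted p = 0.00060). It was the 1 gene of 7 called in the pentose phosphate list, where 7.51% of all genes were called higher.

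Nuclear genes of the respiratory chain were slightly higher in the rich cells. All 77 with at least 20 CPM had a P6 ratio above 0, with a median log2 ratio of 0.13 and a range of 0.05 (Ndufs6) to 0.29 (Ndufc1), and 32 of 80 tested passed the edgeR fit over 3 libraries. These genes are short, with a median span of 7.46 kb, and with the median of genes of like span subtracted the median log2 ratio was 0.07. Without the P8 library 0 of them passed. Of the 13 chain genes encoded in mitochondrial DNA, none was called, with a P6 median of 0.02 over 11. Citric acid cycle genes had 7 of 27 called higher and none lower at a P6 median of 0.06 (0 of 27 without P8), among them Mdh1, a malate dehydrogenase, at 693 and 778 CPM.

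The hypoxia-response list, which shares Ldha with glycolysis, had 7 of 26 genes called higher and 2 lower, with a P6 median of 0.15 over 18. Shares over all genes were 7.51% higher and 7.26% lower, so the count of lower genes was about the background. Ankrd37, a classic low-oxygen target, stood at 14.3 CPM in matched zero and 21.1 CPM in rich cells, Vegfa, a vascular growth factor, at 15.3 and 22.6, and Bnip3, a mitochondrial autophagy receptor, at 47.7 and 62.9. Hif1a, the oxygen-regulated factor itself, was at 134 and 136 CPM (edgeR adjusted p = 0.82). Egln3, an oxygen sensor that is itself a known HIF target, went the other way at 90.0 and 62.5 CPM. Without the P8 library 2 genes were called higher and 1 lower. Vegfa was then at an adjusted p of 0.24 and Bnip3 at 0.062 with edgeR.

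Genes of mitochondrial movement, the process in which the Mgarp protein has been placed, did not move as a group. The list of 27 genes held motors, adaptors, fission and fusion genes, and also inner membrane genes such as Apool and Immt. Of these 27, 1 was called higher (Apool, not a gene of transport) and 1 lower, against 7.51% and 7.26% of all genes. The P6 median was -0.02 over 22. Kif5a, a kinesin motor, had a log2 ratio of -0.18, Trak2, an adaptor, -0.17, and Rhot1, the Miro1 GTPase, -0.14, and none of these 3 passed.

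Of 29 genes of the growing neurite, 14 fell with Mgarp in the edgeR fit over 3 libraries and none rose. The P6 median was -0.17 over 24, of which 1, Gap43, was past 1.5-fold, while Stmn3 (0.06) and Nrep (0.02) had log2 ratios above 0. Besides Gap43, Stmn1, a microtubule destabiliser, stood at 679 and 473 CPM in matched zero and rich cells, Sox4, a factor of immature neurons, at 174 and 126 CPM, and Dpysl3, a growth cone collapsin mediator, at 236 and 176 CPM. Nnat, neuronatin, stood at 901 and 723 CPM. Tubb3, Stmn2, Basp1 and Tuba1a, which are also neurite genes, had log2 ratios of -0.18, -0.04, -0.01 and -0.03 and did not pass. Without the P8 library 9 of the list were called lower, and Stmn1 was at an adjusted p of 0.25 with edgeR.

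Part of the synaptic adhesion, guidance and glutamate receptor genes fell too. In synaptic adhesion 19 of 34 genes were called lower and none higher (P6 median -0.18), led by Tenm2 (log2 ratio -0.54), Ntng1 (-0.52) and Lrrtm4 (-0.49), which encode teneurin, netrin-G and leucine-rich repeat adhesion proteins. In mosaic spacing and guidance 15 of 28 were called lower and none higher (median -0.23), with the semaphorin Sema6d at -0.41 and the Slit receptor Robo2 at -0.39. In glutamate receptors and their scaffolds 13 of 27 were called lower and none higher (median -0.17), with Neto1, a kainate receptor auxiliary protein, at -0.57. With the median of genes of like span subtracted, the medians of the 3 lists were -0.13, -0.12 and -0.14. Without the P8 library the counts of lower genes were 9, 4 and 10.

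The ankyrin and spectrin list, the subject named in the title of the series, had 12 of 23 genes called lower and none higher, with a P6 median of -0.13. Kcnq3, which binds ankyrin-G, was the farthest. Ank3, which encodes ankyrin-G, stood at 588 CPM in zero and 468 CPM in rich cells (edgeR log2 change -0.45 ± 0.08 SE, adjusted p = 0.0026). Ank2, ankyrin-B, stood at 2000 and 1876 CPM and did not pass (edgeR adjusted p = 0.24). Without the P8 library 1 gene of the list was called, and Ank3 was at an adjusted p of 0.087 with edgeR. With the median of its span group (genes of like length, described next) subtracted, the list's P6 median was -0.01.

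Transmitter genes were called in both directions, where over all genes 7.51% were called higher and 7.26% lower. Among vesicle release genes 4 of 30 were called higher (Cplx3, Vamp2, Rab3a and Napa) and 6 lower, among them the complexin Cplx1 at a log2 ratio of -0.31. Cplx2, also a complexin, had a log2 ratio of 0.05 and did not pass (edgeR adjusted p = 0.83). Among GABA genes 5 of 19 were called lower, with the receptor subunit Gabrb2 at 27.7 and 18.6 CPM, while Slc32a1, the vesicular GABA transporter, was at 258 and 287 CPM (edgeR adjusted p = 0.14). Without P8 the counts were 1 higher and 1 lower for vesicle release, and 3 lower for GABA. Among genes of horizontal cell function, 5 of 24 were called higher and 2 lower, the latter about the share over all genes, and Sept4, a septin, stood at 1187 and 1627 CPM.

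**Figure D4:**
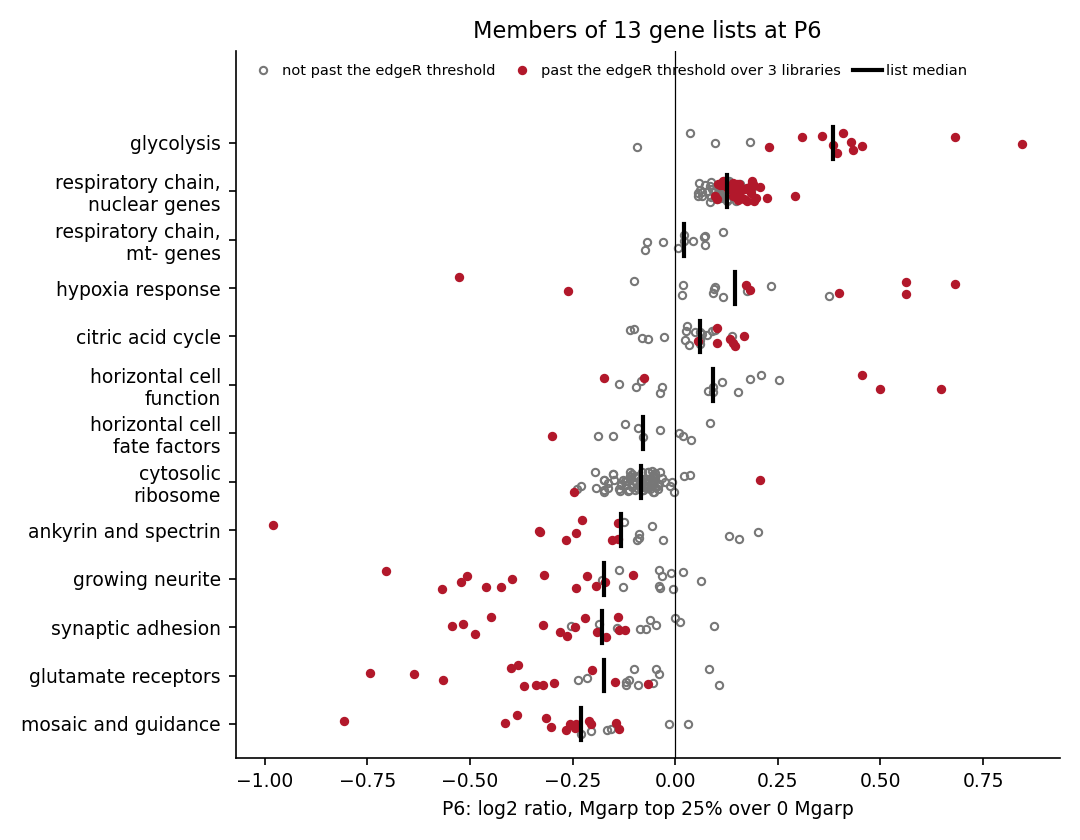
Log2 ratio of Mgarp-rich over Mgarp-zero cells at P6 (horizontal axis) for every member of 13 gene lists with at least 20 CPM (1 point a gene). Filled points passed the edgeR fit over 3 libraries, open points did not, and black bars are list medians, from 0.38 for glycolysis to -0.23 for mosaic and guidance genes.

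Age-related genes picked in earlier work on these libraries moved alike within P6. Of 17 picked as higher with age, 13 were called higher and none lower (P6 median 0.45 over 11), and of 18 picked as lower with age, 17 were called lower and none higher (P6 median -0.54). These lists were chosen on these samples, with P6 cells among them, so they are not independent evidence of a direction. Alk, a receptor tyrosine kinase of the second list, stood at 285 and 191 CPM. Of that list Gad1, the GABA-forming enzyme, was the 1 gene not called, with a P6 log2 ratio of 0.19. Without P8 the counts were 6 and 14.

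Gene span moved with the contrast. The lower genes had a median span of 310 kb and the higher genes of 15.8 kb, against 29.8 kb for all tested genes, and 19 of the 24 lower genes lay in the longest of the 5 span groups. The median log2 ratio at P6 was 0.08 in the shortest group (median span 4.91 kb) and fell to 0.04, -0.00, -0.05 and -0.12 in the longest (166 kb). The nuclear RNA Malat1, which tracks the share of nuclear RNA in a droplet, was at 20875 CPM in zero and 19177 CPM in rich cells. The medians of the shortest and longest groups were 0.06 and -0.22 at P8 and 0.20 and -0.41 at P11.

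When the P6 cells were matched for Malat1 level as well as depth (1441 cells a group), the medians of the shortest and longest span groups were 0.04 and -0.08. In those cells 16 genes passed 1.5-fold upward and 21 downward, 15 and 19 of them shared with the first draw. Kcnq3 then had a log2 ratio of -0.90, Rbfox1 -0.66, Cplx3 1.10 and Calb1 0.63. Several lower genes are short: Pyy spans 1.16 kb, Nnat 2.45 kb, Marcksl1 2.40 kb, Sox4 4.79 kb and Stmn1 5.52 kb. Whether intron reads were counted is not given in the sources used here, and the part of unspliced RNA in the ratios of long genes was not tested.

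**Figure D5:**
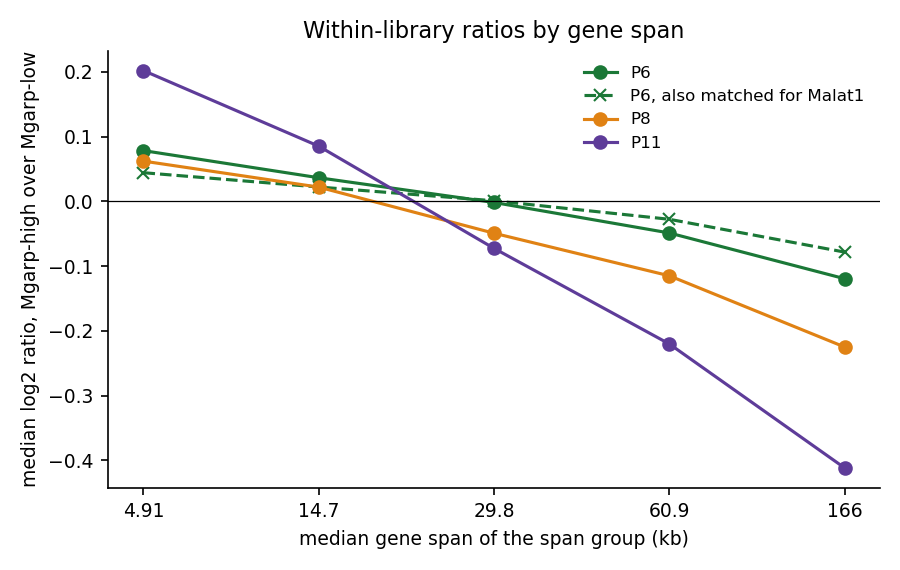
Median log2 ratio of Mgarp-high over Mgarp-low cells (vertical axis) in 5 equal groups of genes by genomic span (horizontal axis, median span in kb), for P6, for P6 cells also matched for Malat1, for P8 and for P11. All 4 lines fall from left to right, P6 from 0.08 to -0.12 and P11 from 0.20 to -0.41.

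Markers of most other cells were low in both groups, apart from the amacrine and ganglion cell lists. Of the rod markers, Sag stood at 3.56 CPM in zero and 2.30 CPM in rich cells, Nr2e3 at 1.83 and 0.523 CPM and Nrl at 0.943 and 0.680 CPM, with Gnat1 at 0 in both. The 8 bipolar markers summed to 4.35 and 3.92 CPM and the 8 microglial markers to 10.7 and 9.83 CPM. The 9 amacrine markers summed to 8754 CPM in zero and 9677 CPM in rich cells, mostly the neuropeptide gene Npy (6550 and 7160) and C1ql1 (1938 and 2224), with 4 of 9 higher in rich cells and C1ql2 and Tfap2c at 0 in both. The 8 ganglion cell markers summed to 751 and 831 CPM, mostly Sncg (699 and 790), with 3 of 8 higher in rich cells and Isl2 at 0 in both. The part of such cells in the results was not tested. The 9 Müller glia markers summed to 194 and 219 CPM, mostly Glul and Clu, and 5 of the 9 were higher in rich cells. Of the other 7, Rlbp1 had 10 UMIs in zero and 33 in rich cells, Slc1a3 1 and 25, and Sox9 4 and 17. Hes1 had 6 in each, and Aqp4 (56 and 51), Kcnj10 (2 and 0) and Dkk3 (627 and 545) had fewer UMIs in rich cells. Vim, Aldoc and Glul are also Müller genes, and the part of Müller RNA in their ratios was not tested.

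At the low end of detection stood Ptger3, a receptor for prostaglandin E2, with 53 UMIs in zero and 12 in rich P6 cells (2.78 and 0.627 CPM, 4.42-fold, 2.33 to 9.09). At P8 its level was 3.70 CPM in the bottom and 0.228 in the top 25%, and at P11 5.92 and 0.198 CPM. It was among the 5 lowest adjusted p-values of lower genes in the edgeR fit over 3 libraries (0.00015). After thinning, 1.30% of zero cells and 0.450% of top 25% cells had a Ptger3 UMI (unthinned 2.85% and 0.708%), so few cells carry this difference.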

How the data were processed

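Single-cell RNA of sorted retinal horizontal cells was measured in 3 libraries (P6, P8 and P11). Raw UMI counts of 32285 features a barcode were deposited by the authors; the submitters' processing notes name Cell Ranger 7.1.0 and mm10. The sources used here state neither an annotation release nor whether intron reads count. The libraries held 87939202, 65546590 and 105561999 UMIs, and shared 13, 15 and 8 barcodes pair by pair. Cells were kept by the limits given above; no doublets were removed in the main comparison, and since Scrublet's own threshold marked 0% of P6 cells, an alternative left out the 512 cells of highest score. Groups were matched on depth by a fixed random draw, and UMIs were summed per group and divided by the summed UMIs. A summed count under 3 entered a log2 ratio as 3 counts. Poisson, conditional binomial and Clopper-Pearson 95% intervals cover counting error only.

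Sums of the 3 libraries (P6: top 25% and 0; P8 and P11: top and bottom 25%) were tested with edgeR 4.0.16 in R 4.3.3 (TMM, filterByExpr, library as block, Benjamini-Hochberg at 0.05); Mgarp was left out. The 2 sums of a library come from the same animals and capture, so the library pairs them. DESeq2 1.42.0 was an alternative. The scripts were tested on simulated data with known changes. Genes were named by these rules: the 12 highest and 12 lowest P6 ratios with at least 50 CPM (without mitochondrial, ribosomal, hemoglobin, sex-linked and provisional symbols), list members farthest past 1.5-fold, 17 standing genes, and the 5 lowest adjusted p-values each way; further list members were named after their values were seen. Features that shared a symbol (78) were left out of names and lists. Genes on overlapping or antisense features may share reads. The members and lists were chosen with earlier results of these data known. Gene spans came from GENCODE vM21 and promoters from RefSeq.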

Additional observations from a re-analysis of the deposited data

Results flagged for a closer look

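Outside the horizontal cells, the P6 barcodes with no UMI of Lhx1, Onecut1 or Onecut2 held Mgarp at 284 CPM (156 UMIs, exact Poisson 95% interval 242 to 333), above the limit of 5.47 CPM that a count of 0 allows and above the 161 CPM of the P6 horizontal cells. Other horizontal cell genes stood lower there: Calb1 at 208 CPM against 709 in horizontal cells (29.3%), Slc4a3 at 173 against 502 (34.5%), Tfap2b at 487 against 1681 (29.0%) and Prox1 at 303 against 935 (32.4%), while Mgarp was at 177% of its horizontal cell level. At P8 Mgarp in such barcodes was at 35.6% of the horizontal cell level and at P11 at 26.1%. These barcodes numbered 197 at P6, and their cell types were not assigned.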

How the results depend on the processing

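Of 19 higher and 24 lower genes at P6, the numbers became 4 and 1 with cells thinned to 5000 UMIs, 2 and 3 against the Mgarp-positive cells below the top 25%, 5 and 3 for every positive cell against 0, 45 and 89 for the top 10% (added after seeing the data), 889 and 1292 with no CPM minimum, and 8 and 12 at 50 CPM. Of the 24 lower genes, none was among the 1 called after thinning, where groups were set anew on the thinned Mgarp UMIs and the upper group held 2577 cells instead of 1539, so that its make-up changed too. The cause was not tested, apart from the minimum, which changes how many genes are compared. Cells with a Y-linked and no Xist UMI (437 a group) gave 24 and 36, sharing 10 of the 19 and 17 of the 24. This and the other settings moved the counts by at most 1.5 times, and no gene of either set crossed to the opposite call under any of them. Every setting used the same library and ranked cells on Mgarp, so the lack of crossings was favoured from the start. Under TMM scaling all ratios shift by 0.02 on the log2 scale.

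Over 3 libraries, 1028 higher and 994 lower genes with edgeR became 644 and 435 with DESeq2 and 0 and 0 with no replicate block, where the differences between ages enter the spread. Leaving out 1 library at a time gave 199 to 1247 higher and 366 to 1355 lower; the low values are those without P8. At P6 a zero cell of median depth cannot be told from one at the threshold.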

Other observations

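Clock genes were a small group that the lists above do not hold. Of 19 circadian genes, chosen after Dbp was seen among the higher genes, 3 were called higher and 1 lower over 3 libraries with edgeR. The shares of all genes were 7.51% and 7.26%. The P6 median log2 ratio of the circadian list was 0.16 over 11. Besides Dbp, Cry1, a clock repressor, stood at 19.5 CPM in matched zero and 23.9 CPM in rich cells, and at an adjusted p of 0.14 without the P8 library in the edgeR fit. The nuclear receptor genes Nr1d1 and Nr1d2 had log2 ratios of 0.31 and 0.16 and did not pass, and Arntl and Clock had -0.22 and -0.18.

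Of 14 genes of dorsal-ventral or nasal-temporal position, 2 were called higher and 6 lower over 3 libraries with edgeR (1 and 2 without P8). Of all genes, 7.51% were called higher and 7.26% lower over 3 libraries. The list had a P6 median log2 ratio of -0.12 over 9. Vax2, a factor of the ventral retina, was at 41.1 CPM in zero and 42.2 CPM in rich P6 cells, at 18.5 and 30.2 CPM in the bottom and top 25% at P8, and at 19.3 and 26.9 CPM at P11. The difference between libraries was not tested. Of the same list, Rassf8 stood at 35.8 and 26.8 CPM at P6 and the ephrin gene Efna5 at 48.8 and 27.9 CPM.

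Of 31 cholesterol and lipid synthesis genes, 2 were called higher and 1 lower, and of 28 mitochondrial biogenesis genes 2 higher and 1 lower. Over all genes 7.51% were called higher and 7.26% lower, so these counts are not above the background. Cytosolic ribosome genes had 73 of 76 P6 ratios below 0, with a median of -0.08, and 1 was called higher and 1 lower over 3 libraries with edgeR. Of 16 dissociation stress genes tested, 3 were called higher and none lower at a P6 median of 0.05, and 0 were called without P8.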
